A study of Mus musculus with 7 samples.

Results

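Muscle actins and their contractile partners were the subject: 10 genes chosen by name, Acta2, Actg2, Acta1, Actc1, Tagln, Cnn1, Cald1, Tagln2, Myl9 and Myh11, of 29686 mouse genes measured by RNA-seq. The list was drawn up with their levels in these libraries already known, so the levels are a description and carry no test. The study turned embryonic fibroblasts of the mouse into neural stem cells (NSC) with the reprogramming factors Oct4, Sox2, Klf4 and Myc (OSKM), and each population was measured in 1 library. The day 6 library came from B6/129 Nanog-CreER reporter fibroblasts that carried Rosa26-TdTomato and Col1a-OSKM transgenes, were given doxycycline and 4OHT from day 1 and were sorted as tdTomato-positive on day 6. In this reporter the Nanog gene drives the Cre that marks a cell, so the sort kept cells in which the reporter had fired.

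The Tomato-positive NSC and Tomato-negative NSC libraries came from OSKM-derived NSC of the same B6/129 background and transgenes, subcloned mechanically, and no feeders were used for them or for day 6. The other libraries were brain NSC from BDF2 embryos (E12.5 in the sample label, E13.5 in the protocol), induced pluripotent stem cells (iPSC) of strain A12 (Mbd3 flox/-), embryonic stem cells (ESC) of line v6.5, and embryonic fibroblasts (MEF) of strain A12 (Mbd3 flox/-). The ESC were grown on MEF feeders, and the iPSC label mentions feeders with question marks. The MEF library is of another strain than the converted cells and is not their source, so strain and cell state cannot be told apart when they are compared. The same holds, for strain or line, for brain NSC and ESC against MEF, for OSKM-derived NSC against brain NSC, and for iPSC against ESC. The iPSC and MEF share a strain label. With 1 library a group there is no replicate, and intervals below cover counting error only.

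Muscle actins are the actins of contractile fibres. Acta2 and Actg2 are the smooth muscle forms, Acta1 the skeletal form and Actc1 the cardiac form, while Actb and Actg1 are the cytoplasmic forms that all cells use. In smooth muscle, Tagln, Cnn1 and Cald1 bind the actin filament, and Myh11 and Myl9 are the heavy chain and regulatory light chain of its myosin. Fibroblasts in culture are known to switch on part of this set as they become myofibroblasts, and many of these genes are targets of serum response factor (Srf) with its myocardin-family partners, which act at a sequence called the CArG box.

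The promoter windows of the members that hold such a box, or one like it, are shown, and were picked for holding these letters. RefSeq (GRCm38.p6) gave windows from 250 bases before to 50 bases after the start for 7 of the 10 members, 8 windows in all, since Cald1 has a pair of starts. A CArG box stood in 3 of the 8 windows and in 1.63% of all 32851 windows. A CArG box with at most 1 G or C in its A/T core stood in 4 of the 8 and in 9.98% of all windows. The CArG box pattern is its own reverse complement, so 1 search covers both strands, and overlapping matches were counted. Capitals mark the boxes in the 4 windows below, given 5′ to 3′ on the gene's strand: chr19:34255324-34255623 (minus strand) for Acta2, chr8:123894726-123895025 (minus strand) for Acta1, chr2:114052826-114053125 (minus strand) for Actc1 and chr2:156775214-156775513 (plus strand) for Myl9.
Acta2: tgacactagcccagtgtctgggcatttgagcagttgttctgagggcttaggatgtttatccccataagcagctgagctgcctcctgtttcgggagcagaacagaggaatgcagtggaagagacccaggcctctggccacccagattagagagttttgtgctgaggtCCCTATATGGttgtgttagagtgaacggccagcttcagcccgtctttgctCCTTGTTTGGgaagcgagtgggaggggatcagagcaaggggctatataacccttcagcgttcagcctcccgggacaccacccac
Acta1: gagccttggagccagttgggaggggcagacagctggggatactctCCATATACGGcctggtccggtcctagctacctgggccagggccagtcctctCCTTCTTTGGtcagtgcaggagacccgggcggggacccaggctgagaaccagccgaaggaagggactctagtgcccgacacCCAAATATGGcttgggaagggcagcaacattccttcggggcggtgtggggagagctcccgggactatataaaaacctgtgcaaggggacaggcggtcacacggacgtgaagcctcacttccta
Actc1: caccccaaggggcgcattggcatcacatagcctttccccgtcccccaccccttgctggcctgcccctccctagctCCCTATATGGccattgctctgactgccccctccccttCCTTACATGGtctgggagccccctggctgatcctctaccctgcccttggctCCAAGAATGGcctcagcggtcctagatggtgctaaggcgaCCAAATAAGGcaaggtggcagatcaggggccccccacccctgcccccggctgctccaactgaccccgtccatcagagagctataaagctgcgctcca
Myl9: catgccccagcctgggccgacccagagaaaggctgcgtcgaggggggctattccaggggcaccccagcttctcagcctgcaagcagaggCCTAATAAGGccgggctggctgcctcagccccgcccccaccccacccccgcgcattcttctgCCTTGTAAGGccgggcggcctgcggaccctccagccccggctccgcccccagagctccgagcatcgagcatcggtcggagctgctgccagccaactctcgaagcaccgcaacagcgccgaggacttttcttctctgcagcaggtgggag
The Acta2 boxes lay 84 and 34 bases before the RefSeq start, and each had 1 G or C in the core. The Acta2 first exon used for the levels (34255290 to 34255590) begins upstream of that start, and both boxes lie inside it. Acta1 held boxes 205, 154 and 73 bases before its start, Actc1 175, 138, 87 and 47 bases before, and Myl9 161 and 99 bases before. Those at 73 bases in Acta1, 47 in Actc1 and 161 in Myl9 had none in the core. The Tagln2, Cnn1 and both Cald1 windows held no match in these letters. A match describes the sequence and shows no binding.

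The libraries held 19 M to 58 M reads, as read from the steps of the values. Marker genes went with the labels: the 5 pluripotency genes summed to 1026 RPKM (reads scaled to exon length in kilobases and to library depth) on day 6, 6665 for iPSC and 8655 for ESC, against 3.54 to 10.0 in the 3 NSC libraries and 4.40 in MEF. The 6 NSC genes summed to 5508 to 10842 RPKM in the 3 NSC libraries, against 10.9 to 60.0 in the other 4. The 12 fibroblast genes summed to 514 RPKM on day 6, 2465 in Tomato-positive NSC, 370 in Tomato-negative NSC, 468 in brain NSC, 586 in iPSC, 5279 in ESC and 31667 in MEF. The MEF library also held the 4 myeloid markers, which summed to 6.98 to 162 RPKM in the other 6 libraries and 3657 in MEF. S100a8 was listed at 0 on day 6, in Tomato-negative NSC and in brain NSC.

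The level of a gene below is the mean RPKM of its exons weighted by exon length. The smooth muscle and myofibroblast set was high in MEF and low in the other libraries, apart from Cald1 and Tagln2, which were read widely. On day 6, Actg2 was the muscle actin that stood highest outside MEF. Actc1 stood highest outside MEF in brain NSC, and Tagln2 was high in all libraries but that one.

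**Figure D1:**
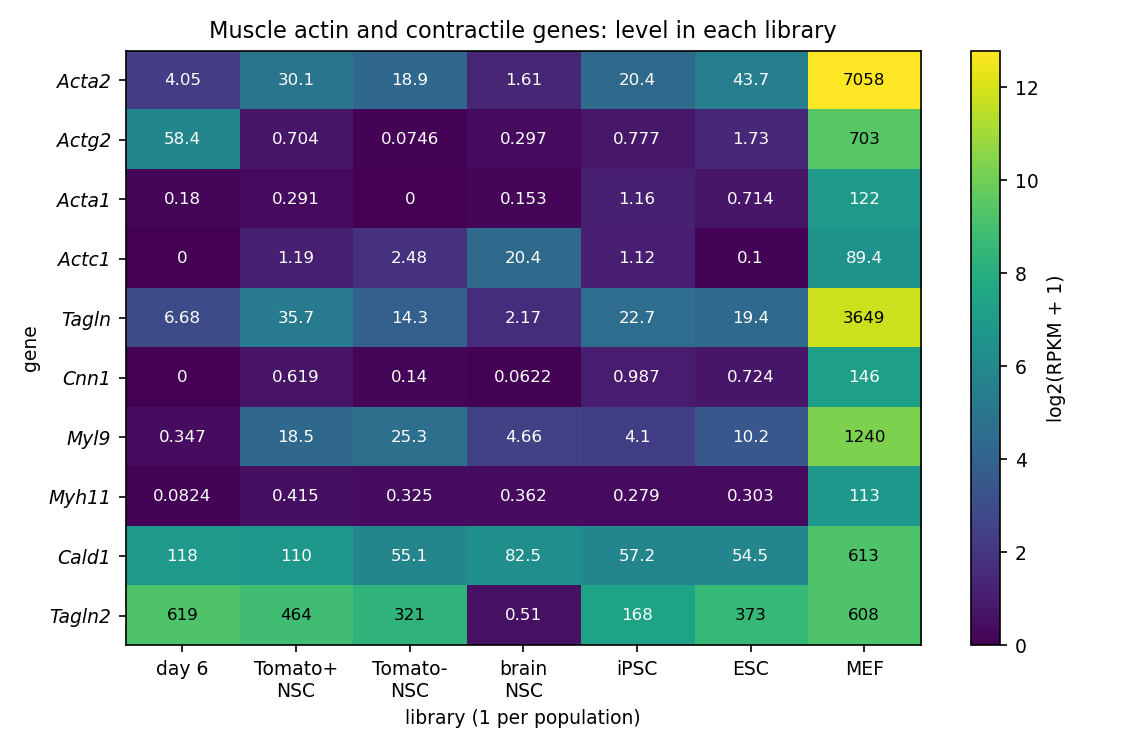
Heat map of the level of each of the 10 genes (down) in each of the 7 libraries (across, 1 per population), with the RPKM printed in each cell and the colour giving log2(RPKM + 1). MEF holds the highest value of 9 genes, Tagln2 is 619 RPKM on day 6 and 608 in MEF, and Actg2 on day 6 (58.4 RPKM) and Actc1 in brain NSC (20.4 RPKM) stand out from their rows.

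Acta2, the smooth muscle alpha actin by which myofibroblasts are recognised (ENSMUSG00000035783, exons from 34241090 to 34255590 on chromosome 19, mm10, minus strand), had 4.05 RPKM on day 6, 30.1 in Tomato-positive NSC, 18.9 in Tomato-negative NSC, 1.61 in brain NSC, 20.4 in iPSC, 43.7 in ESC and 7058 in MEF. It was the highest member in MEF and 161-fold higher there than in ESC, the next library. By this gene value brain NSC held the least. It had 69 reads on exons that do not overlap each other, with a 95% exact Poisson interval of 1.15 to 1.87 RPKM. In bulk samples fewer cells with a transcript and less transcript per cell cannot be told apart, so the values between 18.9 and 43.7 RPKM may come from few cells or many.

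The day 6 value of Acta2 rested on its coding exons alone. The noncoding first exon (34255290 to 34255590, 301 bases) held 0 reads on day 6, a level of at most 0.217 RPKM at 3 reads, against 6755 RPKM in MEF. With the MEF profile over exons, 53.6 of the day 6 reads would have lain in it. The third exon held 87 day 6 reads where the MEF profile gives 39.2, and the sixth held 75 where it gives 45.3. In the other 5 libraries the first exon was read: 31.4 RPKM in Tomato-positive NSC, 25.3 in Tomato-negative NSC, 2.36 in brain NSC, 18.3 for iPSC and 24.9 for ESC.

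**Figure D2:**
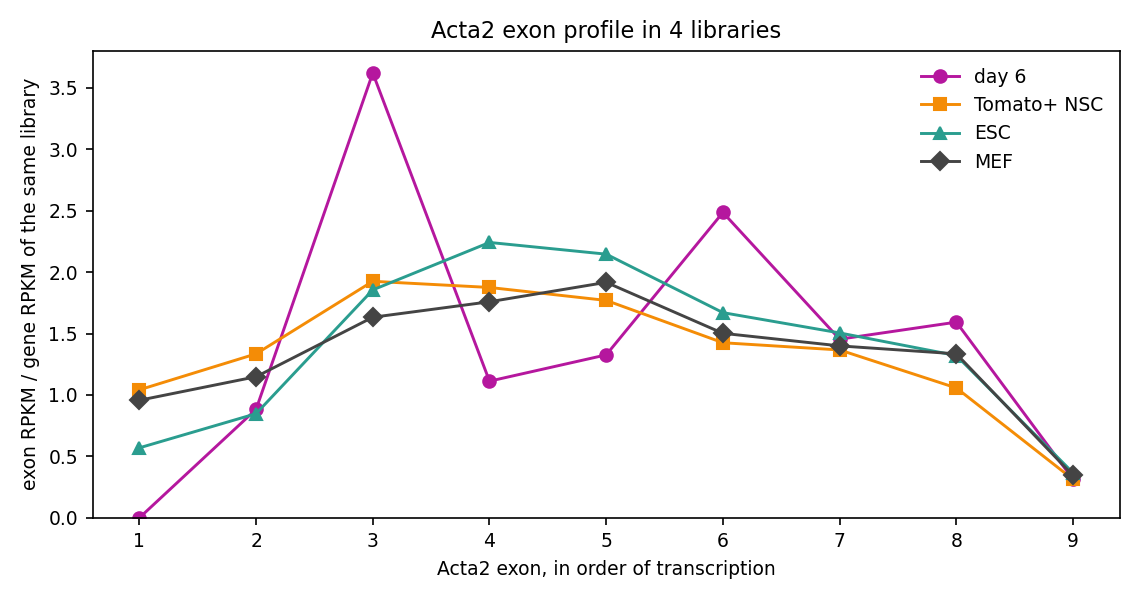
RPKM of each Acta2 exon divided by the RPKM of the gene in the same library, for exons 1 to 9 in order of transcription, in 4 libraries. On day 6 exon 1 is at 0, and exons 3 and 6, and by less exon 8, stand above the other libraries shown. In ESC exon 1 lies below Tomato-positive NSC and MEF, and exon 4 above them.

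Exons 3 to 8 have the same lengths in Acta2 and Actg2, with 82.0% to 86.0% of bases identical per exon. Over the 861 aligned bases the genes matched at 84.7%, and the longest identical run was 29 bases. On day 6 the Acta2 level was 0.0461 to 0.152 of the Actg2 level over these 6 exons, against 11.4 to 12.8 times it in MEF. Over the first and last exon alone, whose lengths differ between the genes, Acta2 had 0.893 RPKM on day 6, 1.02 in brain NSC and 3705 in MEF. Actg2 had 26.2 on day 6 and 426 in MEF. By these exons day 6, not brain NSC, had the lowest Acta2 level. This measure was added after the data had been seen. Whether any of the day 6 reads on Acta2 came from Actg2 transcripts was not tested.

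Actg2, the enteric smooth muscle gamma actin (ENSMUSG00000059430, 83512905 to 83536265 on chromosome 6, minus strand), had 58.4 RPKM on day 6, 0.704 in Tomato-positive NSC, 0.0746 in Tomato-negative NSC, 0.297 in brain NSC, 0.777 in iPSC, 1.73 in ESC and 703 in MEF. Day 6 was thus the one library outside MEF above 2 RPKM. Its level there was 12.1-fold lower than in MEF, with an interval of 11.6 to 12.4 from 4107 and 48116 reads. All 15 Actg2 exons were read on day 6, from 11.6 to 121 RPKM, the noncoding first exon (28.6 RPKM) among them. In Tomato-negative NSC 10 of the 15 exons held no read, and the gene value rested on 5 reads.

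Acta1, the skeletal muscle actin (ENSMUSG00000031972, 123891769 to 123894751 on chromosome 8, minus strand), had 0.180 RPKM on day 6, 0.291 in Tomato-positive NSC, 0 in Tomato-negative NSC, 0.153 in brain NSC, 1.16 in iPSC, 0.714 in ESC and 122 in MEF. It stayed below 2 RPKM in the 6 libraries other than MEF and was at least 1978-fold lower in Tomato-negative NSC than in MEF, taking 3 reads as the limit for 0. In MEF all 7 exons were read, from 66.5 to 170 RPKM. In Tomato-negative NSC none of them was.

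Actc1, the cardiac actin (ENSMUSG00000068614, 114047282 to 114053548 on chromosome 2, minus strand), had 0 RPKM on day 6, 1.19 in Tomato-positive NSC, 2.48 in Tomato-negative NSC, 20.4 in brain NSC, 1.12 in iPSC, 0.10 in ESC and 89.4 in MEF. Brain NSC held the highest level outside MEF, at 805 reads and 4.38-fold below MEF (interval 4.07 to 4.72). The 6 exons read in MEF were also read in brain NSC, with 15.1 RPKM in brain NSC and 75.1 in MEF for the last exon. On day 6 all 7 exons were at 0, which puts the level at least 2002-fold lower than in MEF.

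The 4 muscle actins took 1.74% of the summed RPKM of the 6 actins on day 6, 0.765% in Tomato-positive NSC, 0.555% in Tomato-negative NSC, 0.946% in brain NSC, 1.16% in iPSC, 3.04% in ESC and 56.7% in MEF. In MEF the muscle forms together thus exceeded the cytoplasmic forms by this measure, with 7972 against 6100 RPKM. In the other libraries nearly all of the sum was cytoplasmic. The measure averages all annotated exons of each gene, overlapping ones included, so the order in MEF may depend on the annotation. Actb stood at 2248 RPKM on day 6, 1839 in Tomato-positive NSC, 1528 in Tomato-negative NSC, 717 in brain NSC, 1157 in iPSC, 751 in ESC and 2709 in MEF. Actg1 stood at 1283, 2349, 2309, 1638, 840, 725 and 3390 RPKM in the same libraries.

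Tagln, or SM22 alpha, an early smooth muscle protein that bundles actin (ENSMUSG00000032085, 45929619 to 45936058 on chromosome 9, minus strand), had 6.68 RPKM on day 6, 35.7 in Tomato-positive NSC, 14.3 in Tomato-negative NSC, 2.17 in brain NSC, 22.7 in iPSC, 19.4 in ESC and 3649 in MEF. Its 2 lowest libraries were brain NSC and, above it, day 6, and MEF stood 102-fold above Tomato-positive NSC. The Acta2 gene values had the same order, but the first and last Acta2 exon alone did not. All 5 exons, of which 1 shares bases with another gene, were read on day 6, the noncoding first exon among them at 5.31 RPKM.

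Cnn1, calponin, which binds actin and slows the myosin motor (ENSMUSG00000001349, 22099268 to 22109630 on chromosome 9, plus strand), had 0 RPKM on day 6, 0.619 in Tomato-positive NSC, 0.140 in Tomato-negative NSC, 0.0622 in brain NSC, 0.987 in iPSC, 0.724 in ESC and 146 in MEF. No read fell on its 7 exons on day 6, so the level there was at least 4948-fold lower than in MEF. Outside MEF no library reached 1 RPKM.

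Myl9, the regulatory light chain of smooth muscle myosin (ENSMUSG00000067818, 156775420 to 156781658 on chromosome 2, plus strand), had 0.347 RPKM on day 6, 18.5 in Tomato-positive NSC, 25.3 in Tomato-negative NSC, 4.66 in brain NSC, 4.10 in iPSC, 10.2 in ESC and 1240 in MEF. It was lowest on day 6, with 18 reads (interval 0.206 to 0.548 RPKM), and highest outside MEF in the OSKM-derived NSC. MEF stood 49.0-fold above Tomato-negative NSC.

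Myh11, the smooth muscle myosin heavy chain and the most restricted marker of mature smooth muscle (ENSMUSG00000018830, 14194535 to 14291372 on chromosome 16, minus strand), had 0.0824 RPKM on day 6, 0.415 in Tomato-positive NSC, 0.325 in Tomato-negative NSC, 0.362 in brain NSC, 0.279 in iPSC, 0.303 in ESC and 113 in MEF. The step between MEF and the next library, 273-fold, was the widest of the 10 genes. In MEF each of its 42 exons was read, while on day 6 34 of them held no read.

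Cald1, caldesmon, which holds actin off myosin in smooth muscle and has a shorter form in other cells (ENSMUSG00000029761, 34598500 to 34775473 on chromosome 6, plus strand), had 118 RPKM on day 6, 110 in Tomato-positive NSC, 55.1 in Tomato-negative NSC, 82.5 in brain NSC, 57.2 in iPSC, 54.5 in ESC and 613 in MEF. It was present throughout, and the gap from MEF to the next library was 5.21-fold. The libraries differed in which of an upstream and a downstream first exon was read. The upstream one (34598565 to 34598665), noncoding, took 7.10% of the reads on the pair on day 6, 11.3% in Tomato-positive NSC, 4.98% in Tomato-negative NSC, 13.1% in brain NSC, 4.76% in iPSC, 59.3% in ESC and 58.4% in MEF. These shares are not corrected for exon length, 101 bases upstream and 64 downstream. By RPKM the upstream exon stood at 0.923 of the downstream one in ESC and 0.889 in MEF.

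ESC therefore had nearly the same share as MEF, with exact 95% (Clopper-Pearson) intervals of 48.2% to 69.8% in ESC and 56.6% to 60.2% in MEF, and the intervals of the other 5 libraries ended at or below 19.0%. The upstream exon stood at 12.3 RPKM in ESC and 378 in MEF. The downstream first exon (34709634 to 34709697), which holds the start of the coding sequence of its transcripts, stood at 147 RPKM on day 6, 148 in Tomato-positive NSC, 78.1 in Tomato-negative NSC, 88.5 in brain NSC, 86.2 in iPSC, 13.3 in ESC and 425 in MEF. The fibroblast genes, which feeders could bring, summed to 586 RPKM for iPSC and 5279 for ESC. Of these sums Fn1 alone had 506 RPKM in iPSC and 1013 in ESC. The part of the fibroblast genes in the ESC share was not tested.

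**Figure D3:**
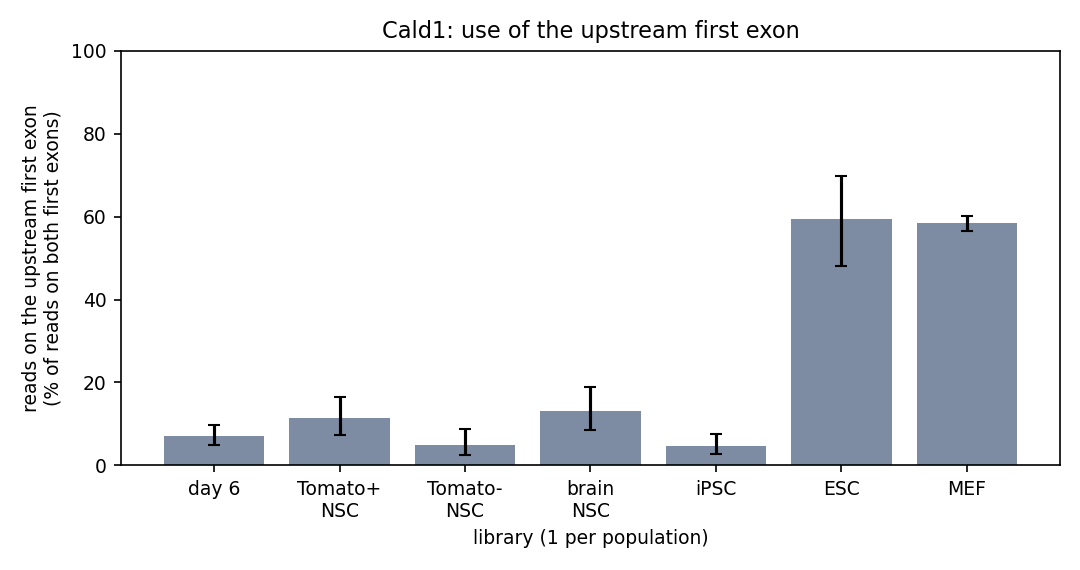
Reads on the upstream first exon of Cald1 as a percentage of reads on its upstream and downstream first exons together, in 7 libraries, 1 per population, with bars of the 95% exact (Clopper-Pearson) interval. ESC (59.3%) and MEF (58.4%) stand apart from the other 5 libraries, which lie between 4.76% and 13.1%. The percentage is not corrected for exon length, 101 bases upstream and 64 downstream.

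A further Cald1 segment (34746386 to 34746639) lies in an exon of the long form, the one made in smooth muscle, and is also annotated as the first exon of another coding transcript, so its reads do not mark the long form alone. Relative to the last exon (34773223 to 34775454), its level was 59.4% on day 6, 40.6% in Tomato-positive NSC, 44.6% in Tomato-negative NSC, 45.1% in brain NSC, 42.9% in iPSC, 37.8% in ESC and 26.1% in MEF. The relative level was highest on day 6 and lowest in MEF. The level itself was 62.7 RPKM on day 6 and 176 in MEF.

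Tagln2, the relative of Tagln that many cells outside smooth muscle make (ENSMUSG00000026547, 172500047 to 172507380 on chromosome 1, plus strand), had 619 RPKM on day 6, 464 in Tomato-positive NSC, 321 in Tomato-negative NSC, 0.510 in brain NSC, 168 in iPSC, 373 in ESC and 608 in MEF. It was the single member that was not highest in MEF, and brain NSC, with 21 reads (interval 0.292 to 0.721 RPKM), lay apart from all others. In brain NSC both noncoding exons at its start held no read, against 97.4 and 444 RPKM in Tomato-negative NSC.

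Against MEF, members were counted where log2((a + 1)/(b + 1)) of the RPKM values a and b passed 4-fold, with no test since each side is 1 library. All 10 members reached the floor of 2 RPKM in MEF. On day 6, 9 of the 10 were 4-fold or more lower, where 16.1% of the 16154 genes at the floor were. For Tomato-positive NSC the count was again 9 of 10, where 8.48% of all genes were, and for Tomato-negative NSC 9 of 10, where 12% were. Brain NSC had all 10 lower (13.3% of all genes), iPSC 9 (14.1%) and ESC 9 (10.5%). The count of 10 in brain NSC included Actc1 at a log2 ratio of −2.08, which became −1.74 with equal totals and −1.94 with a pseudocount of 4 and then left the count, and Cald1 in Tomato-positive NSC, at −2.47, became −1.97 by its highest exon.

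Tagln2 was the gene outside the count in those 5 libraries. No member was 4-fold or more higher in any of the 6, where 8.23% of genes were on day 6, 6.36% in Tomato-positive NSC, 7.1% in Tomato-negative NSC, 7.24% in brain NSC, 10.4% for iPSC and 11.5% for ESC. The members were chosen on these levels, so nothing is read from these counts. The share of higher among the genes counted either way moved by over 10 points with scaling for Tomato-positive NSC against MEF, 42.8% as deposited and 24.9% with median-of-ratios scaling, and for brain NSC against MEF, 35.3% as deposited and 45.3% with equal totals.

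The members' median log2 ratio to MEF was −6.71 on day 6, −6.42 in Tomato-positive NSC, −6.69 in Tomato-negative NSC, −7.44 in brain NSC, −6.35 for iPSC and −6.43 for ESC, while that of all genes at the floor lay between −0.13 and 0.37. On day 6 the log2 ratios ran from −10.45 for Acta2, −9.85 for Myl9 and −8.89 for Tagln to −3.57 for Actg2, −2.37 for Cald1 and 0.03 for Tagln2. The Tagln2 ratios were −0.39 in Tomato-positive NSC, −0.92 in Tomato-negative NSC, −8.66 in brain NSC, −1.85 for iPSC and −0.70 for ESC.

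Set beside the fibroblast genes, which code for matrix and surface proteins, the 10 members, which were chosen on these levels, had the lower median percentage of MEF on day 6, in both OSKM-derived NSC libraries and in ESC, and the higher one in brain NSC and iPSC. The member median was 0.110% of the MEF level on day 6, 0.703% in Tomato-positive NSC, 0.339% in Tomato-negative NSC, 0.105% in brain NSC, 0.649% for iPSC and 0.559% for ESC. The fibroblast median was 1.05%, 15.8%, 1.76%, 0.0623%, 0.376% and 25% of MEF in the same libraries. The median of the 19 further smooth muscle contractile genes was 7.17% of MEF on day 6, 13.1% in Tomato-positive NSC, 8.89% in Tomato-negative NSC, 4.57% in brain NSC, 7.89% for iPSC and 7.53% for ESC. It thus lay above the median of the members in all 6 libraries, and above the fibroblast median in all but Tomato-positive NSC and ESC. In ESC, grown with feeders, Col3a1, a fibrillar collagen, had 1477 RPKM, against 4949 in MEF, and Postn, a matrix protein of fibroblasts, had 340, against 1492, beside the 43.7 and 7058 RPKM of Acta2. Dcn and Lum, of the same fibroblast list, went the other way. Dcn had 741 RPKM in ESC and 374 in MEF, and Lum had 308 and 154. What part of the ESC values came from feeder cells was not tested.

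**Figure D4:**
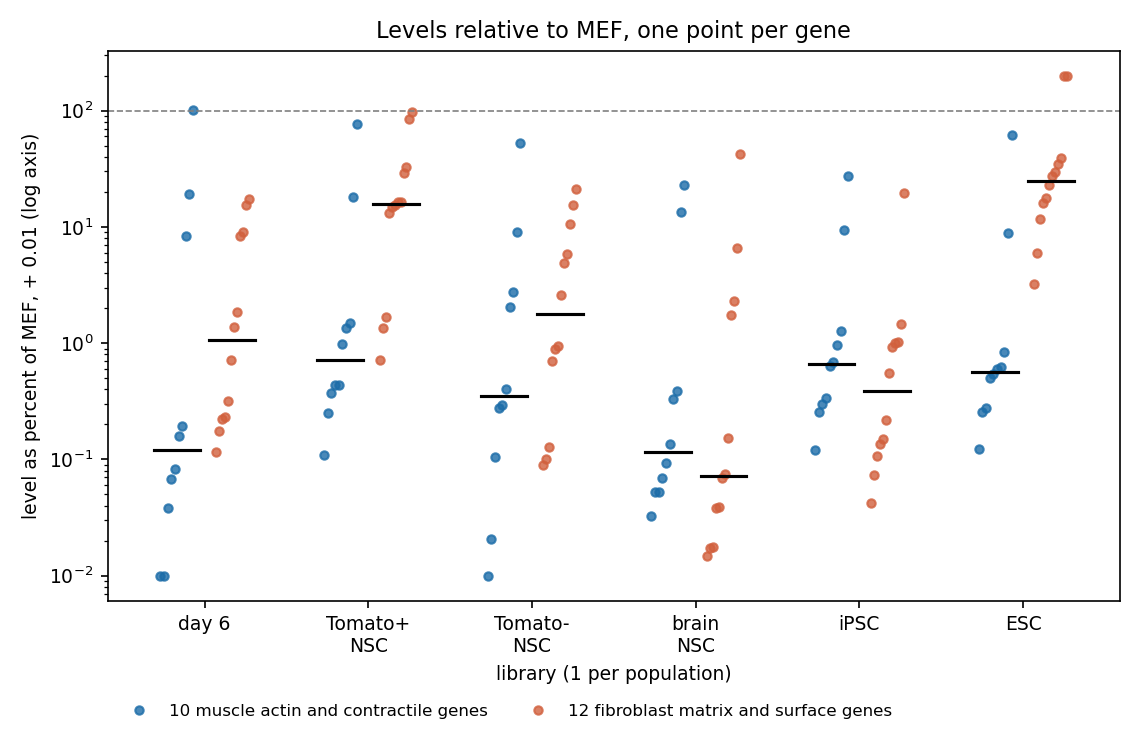
Level of each of the 10 muscle actin and contractile genes (blue) and of 12 fibroblast genes (orange) as a percentage of its level in MEF, plus 0.01, on a log axis, 1 point per gene, with a bar at the median and a dashed line at the MEF level. The blue medians, of genes chosen on these levels, stay below 1% in all 6 libraries, while the orange medians are 15.8% in Tomato-positive NSC and 25% in ESC.

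Between the OSKM-derived NSC, Tomato-positive against Tomato-negative, 6 members reached the floor and none passed 4-fold, where 2.77% of 15323 genes were higher and 0.881% lower. Higher genes made up 75.9% of those counted as deposited, 54.7% with equal totals and 64.2% with median-of-ratios scaling. Tagln had 35.7 RPKM in Tomato-positive NSC and 14.3 in Tomato-negative NSC, a log2 ratio of 1.26, with a read ratio interval of 2.35 to 2.93. The log2 ratio was 0.99 for Cald1, 0.65 for Acta2, 0.53 for Tagln2 and −0.43 for Myl9. In the same pair 9 of the 12 fibroblast genes were 4-fold or more higher, among them Col3a1 with 810 RPKM in Tomato-positive NSC and 43.7 in Tomato-negative NSC. Their part in the contractile values was not tested.

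The OSKM-derived NSC were next set against brain NSC. In Tomato-positive NSC 3 of 6 members at the floor were 4-fold or more higher, where 6.99% of 15501 genes were, and 1 was lower, where 2.97% were. Higher genes made up 70.1% of those counted as deposited, 49.0% with equal totals and 54.5% with median-of-ratios scaling. The higher members were Tagln2, with a log2 ratio of 8.27, Acta2, with 3.58, and Tagln, with 3.53, and the lower one was Actc1, with −3.29. Myl9 had a log2 ratio of 1.78, short of the threshold, and 2.14 by its highest exon. Cald1 had 0.41, which became −0.07 with equal totals.

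In Tomato-negative NSC 4 of 6 members were higher than in brain NSC, where 3.1% of 14950 genes were, and 1 was lower, where 1.57% were. The log2 ratios were 7.74 for Tagln2, 2.93 for Acta2, 2.27 for Tagln, 2.22 for Myl9 and −2.62 for Actc1. For Tagln2 the reads were 442 to 1091 times as dense as in brain NSC by the counting interval. Against the same brain NSC, which both comparisons share, 11 of the 12 fibroblast genes were 4-fold or more higher in Tomato-positive NSC, and 8 of the 11 at the floor in Tomato-negative NSC. Their part in these ratios was not tested.

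Between the pluripotent lines, iPSC against ESC, 5 members reached the floor and none passed 4-fold, where 1.29% of 15749 genes were higher and 4.39% lower. Higher genes made up 22.7% of those counted as deposited and 34.0% with equal totals. Acta2 had 20.4 RPKM for iPSC and 43.7 for ESC, a log2 ratio of −1.06. The log2 ratio was −1.15 for Tagln2, −1.14 for Myl9, 0.21 for Tagln and 0.07 for Cald1. In this pair 11 of the 12 fibroblast genes were 4-fold or more lower in iPSC, and their part in the member ratios was not tested.

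Other genes of the contractile apparatus were counted against MEF in the same way. Of 19 further smooth muscle contractile genes, 12 were 4-fold or more lower on day 6, 12 in Tomato-positive NSC, 13 in Tomato-negative NSC, 17 in brain NSC, 14 for iPSC and 14 for ESC, where 16.1%, 8.48%, 12%, 13.3%, 14.1% and 10.5% of all genes at the floor were in the same 6 libraries. None was higher. Their median log2 ratio on day 6 was −3.73. Mylk, the kinase that switches smooth muscle myosin on, had 0.108 RPKM on day 6, 9.08 in Tomato-positive NSC, 33.5 in Tomato-negative NSC, 5.23 in brain NSC, 0.167 in iPSC, 0.723 in ESC and 82.3 in MEF. On the RPKM scale Mylk was, like Myl9, lowest on day 6 and highest outside MEF in Tomato-negative NSC.

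Tpm2, a tropomyosin, had 8.0 RPKM on day 6 and 572 in MEF. Itga8, an integrin of mesenchymal and smooth muscle cells, had 0.273 on day 6 and 65.5 in MEF, and Fhl2, a LIM protein partner of Srf, had 5.17 and 254. Tpm1, a tropomyosin with muscle and general forms, had 137 RPKM on day 6 and 1832 in MEF. Des, the muscle intermediate filament desmin, had 3.76 RPKM on day 6 and 117 in MEF. Ppp1r14a, an inhibitor of myosin phosphatase, went the other way at 78.0 RPKM on day 6 and 36.9 in MEF, and was chosen after its values were seen.

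Of 23 striated muscle genes, 15 of the 18 at the floor were lower on day 6, 17 of 18 in Tomato-positive NSC, 15 of 18 in Tomato-negative NSC, 18 of 19 in brain NSC, 13 of 19 in iPSC and 13 of 19 in ESC. In ESC 1 was higher, where 11.5% of all genes were. The shares of all genes lower were again 16.1%, 8.48%, 12%, 13.3%, 14.1% and 10.5%. The genes with the largest day 6 ratios were Myh8, a perinatal myosin heavy chain (0.453 RPKM on day 6 and 140 in MEF), Tnnc1, a troponin C (0.754 and 78.9), Tnnt3 (0 and 35.1) and Tnnt2 (0.610 and 48.9), both troponin T genes. Acta1 and Actc1 thus had company in MEF from sarcomere genes.

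The 6 skeletal muscle lineage markers, Myod1, Myf5, Myog, Pax7, Tnnt3 and Ckm, summed to 0.410 to 2.47 RPKM in the 6 libraries other than MEF and to 60.4 in MEF. Of these, 3 reached the floor in MEF, Myog (20.7 RPKM), Tnnt3 (35.1) and Myod1 (3.87), while Myf5 was listed at 0 in the other 6 libraries. Pax7 and Ckm were higher outside MEF. Pax7 had 2.15 RPKM in brain NSC and 0.191 in MEF, and Ckm had 1.74 on day 6 and 0.216 in MEF. The 6 cardiomyocyte markers summed to 2.46 to 23.8 RPKM in the other libraries and 75.3 in MEF. Tnnt2 alone had 48.9 of the MEF sum. Tnni3 and Nppa were higher outside MEF, Tnni3 with 19.4 RPKM in ESC and 5.05 in MEF. The 8 markers of mural cells, the contractile cells of vessel walls, summed to 74.0 to 163 RPKM elsewhere and 454 in MEF. Of these, Pdgfrb had 150 and the pericyte gene Rgs5 3.47 RPKM in MEF, their highest levels, while Cspg4 had 42.5 RPKM in brain NSC and 15.7 in MEF, and Notch3 had 51.0 in Tomato-negative NSC and 39.5 in MEF. The 3 endothelial markers summed to 0.437 to 138 RPKM in the other 6 libraries and 7.23 in MEF. How much of the MEF level of the 10 genes came from muscle or vessel-wall cells in the culture was not tested.

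Of the 11 genes of cytoplasmic actin and nonmuscle myosin, 2 of the 10 at the floor were lower on day 6, 0 of 11 in Tomato-positive NSC, 1 of 11 in Tomato-negative NSC, 5 of 11 in brain NSC, 3 of 11 in iPSC and 4 of 10 in ESC. In each of the 3 NSC libraries 1 was higher. The share of all genes higher was 6.36% in Tomato-positive NSC, 7.1% in Tomato-negative NSC and 7.24% in brain NSC. Over all genes 16.1%, 8.48%, 12%, 13.3%, 14.1% and 10.5% were lower, so the counts on day 6 and in both OSKM-derived NSC libraries lie near the share of all genes. The 2 lower genes on day 6 were Myh10, a nonmuscle myosin heavy chain (31.7 RPKM on day 6 and 230 in MEF), and Tpm4, a tropomyosin of nonmuscle cells (125 and 878).

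Among 15 regulators of the Srf, myocardin and TGF-beta pathways, 7 were lower on day 6, 5 in Tomato-positive NSC, 6 in Tomato-negative NSC, 7 in brain NSC, 8 for iPSC and 8 for ESC, against the same 16.1%, 8.48%, 12%, 13.3%, 14.1% and 10.5% of all genes, and none was higher. Tgfb3 had 0.899 RPKM on day 6 and 406 in MEF, and Tgfb2 had 2.32 and 53.2, both being TGF-beta ligands. Ccn2, a matrix protein induced by TGF-beta and Yap, had 15.8 RPKM on day 6 and 380 in MEF.

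Srf itself had 19.9 RPKM on day 6, 29.9 in Tomato-positive NSC, 28.6 in Tomato-negative NSC, 17.6 in brain NSC, 29.4 in iPSC, 15.0 in ESC and 37.0 in MEF. It was thus read in all 7 libraries at levels close to each other beside those of Acta2. Myocd, the myocardin of heart and smooth muscle, had at most 0.0555 RPKM outside MEF and 3.63 in MEF.

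Between the other libraries, 4 of the 16 further smooth muscle genes at the floor were 4-fold or more higher in Tomato-positive than in Tomato-negative NSC (2.77% of all genes), 8 of 16 in Tomato-positive than in brain NSC (6.99%) and 3 of 15 in Tomato-negative than in brain NSC (3.1%). The share of higher calls in the pairs with Tomato-positive NSC depends on the scaling, as given above (75.9% and 54.7% against Tomato-negative NSC, 70.1% and 49.0% against brain NSC, as deposited and with equal totals). None of 16 passed 4-fold in iPSC against ESC, and none was lower in those 3 NSC comparisons. Of the regulators, 4 of the 13 at the floor were 4-fold or more lower in iPSC than in ESC, where 4.39% of all genes were.

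The genes most like Acta2 across the 7 libraries were ranked by Pearson correlation of log2(RPKM + 1) among 3513 named protein-coding genes, members left out, that reached 100 RPKM in at least 1 library. They were Cox4i2 (0.984), Ndufa4l2 (0.977), Gpc4 (0.977), Itgb5 (0.971) and Dab2 (0.965). All 5 were highest in MEF, with Ndufa4l2, for example, at 4.81 RPKM on day 6, 35.6 in ESC and 502 in MEF. Among the members the correlation with Acta2 was 0.989 for Tagln, 0.954 for Cnn1, 0.936 for Acta1, 0.930 for Myl9, 0.924 for Myh11, 0.782 for Cald1, 0.692 for Actg2, 0.585 for Actc1 and 0.493 for Tagln2. These 7 points include 1, MEF, far from the rest, so a high value says mainly that a gene was high in MEF.

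For Tagln2 the most alike were Phlda3 (0.961), Igf2bp2 (0.951), Cast (0.930), Gas6 (0.926) and Churc1 (0.917). These shared the low point of Tagln2 in brain NSC, where Igf2bp2 had 0.730 RPKM, Cast 0.681, Gas6 0.189 and Churc1 0.217, while Phlda3 had 23.1. Here the point far from the rest is brain NSC.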

How the data were processed

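RNA-seq values of 7 mouse libraries, 1 per group, were used. The authors deposited RPKM per Ensembl exon and library. Per the submitters' processing notes, build mm10 was used with TopHat2 2.0.10, Bowtie, CASAVA 1.8.2 and bedtools, whose roles are not given there. The unit was read from the values, since RPKM times exon length falls on whole multiples that give 19 M to 58 M reads a library. Between 96.3% and 96.5% of values were whole reads among those below 5000 reads (tolerance 0.01 read, plus 1e-05 of the reads). A value of 0 was read as up to 3 reads.

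Of 279252 exons, 270168 were matched by ID to GENCODE M21 and 9084 were left out. A gene's value was the mean over its exons weighted by length, and 135 exon rows made up the 10 genes. Overlapping exons were all kept, and reads spanning a junction raise short exons. Intervals (95%, exact Poisson, or Clopper-Pearson for shares and ratios) took reads on non-overlapping exons and cover counting error only. Exons whose values were not whole reads in all 7 libraries, such as the first of Acta2, were left out of these read counts. Reads are not molecules, strand was not used, and the actin genes, alike over much of their coding exons, may share reads.

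Ratios were log2((a + 1)/(b + 1)) of RPKM, for genes at 2 RPKM or more in either library, counted at 4-fold. There were 10 comparisons and no p-values. Members and lists were chosen with earlier results of these data known. The genes named are the members, up to 4 genes of each list with the largest day 6 to MEF ratio, Actb, Actg1, Srf, Myocd, Tpm1, Mylk and Des, and the 5 genes most like Acta2 and Tagln2. Some genes and sequences that this rule or the lists hold are not reported here. Some marker genes with values in the text, Col3a1, Fn1, Dcn, Lum, Pax7, Pdgfrb, Cspg4 and Notch3 among them, were chosen after their values were seen. Symbols Ctgf, Cyr61, Mkl1 and Mkl2 were matched as Ccn2, Ccn1, Mrtfa and Mrtfb through RefSeq synonyms. Alternatives were a 0.25 or 4 RPKM pseudocount, no floor or one at 0.4 or 8 RPKM, scaling to equal totals or by median of ratios, the highest exon, exons shared with no other gene, and a 2-fold threshold. Acta2 and Actg2 from the first and last exon alone was added after seeing the data. Tested on simulated data for day 6 against MEF over 29686 genes, with counting noise only, the 4-fold rule counted 0% of genes changed 2-fold, 4% at 4-fold, 100% at 8-fold and 16-fold and 0% of unchanged genes, and 7 of 7 depths were recovered. Python 3.11.15, pandas 2.3.3, numpy 2.4.6, scipy 1.17.1 and matplotlib 3.10.9 were used.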

Additional observations from a re-analysis of the deposited data

How the results depend on the processing

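The counts of members 4-fold or more lower or higher than MEF stayed within 1.5 times the reported count in all 6 comparisons with MEF under the 10 alternatives. With a pseudocount of 4, Tomato-negative NSC against brain NSC had 2 members higher and 0 lower, against 4 and 1 as reported. At that setting 1.05% of all genes at the floor were higher and 0.689% lower. With a 2-fold threshold, 1 member was higher in Tomato-positive than in Tomato-negative NSC and 3 were lower in iPSC than in ESC, against 0 and 0 as reported. At 2-fold, 9.77% of all genes were higher in Tomato-positive than in Tomato-negative NSC, and 14.5% were lower in iPSC than in ESC. The pseudocount shrinks ratios of low levels, and a lower threshold counts more genes by construction. Scaling moved the median log2 ratio of all genes by −0.48 to 0.34, and the members by amounts that differed, since the pseudocount damps the move of low values. From the first and last exon alone, the day 6 log2 ratio to MEF was −10.93 for Acta2 and −3.98 for Actg2. No paired analysis was possible because each group has 1 library. Depth limits the members listed at 0 and those resting on few reads, for which only an upper limit or a wide interval holds. Examples are Actg2 in Tomato-negative NSC at 5 reads and Acta1 in brain NSC at 3 reads on the exons counted.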

Other observations

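Within the striated muscle list, Mylpf, the light chain of fast skeletal myosin, had 131 RPKM on day 6, 4.50 in Tomato-positive NSC, 3.96 in Tomato-negative NSC, 2.78 in brain NSC, 549 in iPSC, 515 in ESC and 153 in MEF. It was thus high in the pluripotent lines and on day 6 as well as in MEF, unlike Myh8, Tnnc1, Tnnt3 and Tnnt2 named above. Myl4, an atrial and embryonic light chain, had 68.7 RPKM on day 6, 9.56 in iPSC, 6.62 in ESC and 51.6 in MEF. Both were chosen after their values were seen.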
